A study of Mus musculus with 14 samples.

Results

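The H19, Igf2 and insulin-like growth axis was followed across mouse liver tumours induced with an Aoah plasmid (Aoah encodes acyloxyacyl hydrolase, which removes fatty acyl chains from lipopolysaccharide) or with its empty vector. Its 10 genes were taken by gene symbol from an expression table of 29923 gene symbols, and all 10 were listed there. They are the imprinted fetal pair H19 and Igf2, their chromosome 7 neighbour Cdkn1c, the adult ligand Igf1, the receptors Igf1r, Insr and Igf2r, the receptor adaptor Grb10, and the mRNA-binding protein genes Igf2bp2 and Igf2bp3. The rule names the genes and sets no threshold on their values, but they were proposed with earlier results of these data known. Levels are given in TPM, a share of the library corrected for transcript length, so they can be compared between genes.

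The study comprised 14 bulk tumours labelled as spontaneous hepatocellular carcinoma, from C57BL/6 mice that received plasmids by rapid tail-vein injection. The groups were Luc tumours with Aoah (n = 4), Luc tumours with vector (n = 4), LucOS tumours with Aoah (n = 3) and LucOS tumours with vector (n = 3). All groups carried, per the series text, a MYC and luciferase cassette in a plasmid whose name includes EF1a, with SB100 transposase. In LucOS that cassette also encoded the OVA, SIN and SIY antigens. Aoah or its empty vector came on a PKT2/CLP plasmid. A plasmid for N90-CTNNB1, truncated beta-catenin, is also listed, and the text does not state which tumours received it. An anti-PD1 protocol is attached to the labels, without a statement that it was applied to these samples. The age and sex of the mice are not given. The labels number the tumours without stating separate animals, so p-values measure only the spread between these samples, which may be technical.

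Igf2 is a fetal growth factor that signals through the type 1 receptor encoded by Igf1r and through an isoform of the insulin receptor, whereas the receptor encoded by Igf2r carries it to lysosomes for degradation. Igf2 is expressed from the paternal and H19, a non-coding RNA, from the maternal chromosome, under one imprinting control region and shared enhancers. Both are abundant in fetal mouse liver, strongly reduced after birth and often re-expressed in liver tumours. Igf1 is the ligand of adult life, made mainly by hepatocytes under growth hormone. Cdkn1c encodes the cell cycle inhibitor p57, and Grb10 an adaptor that dampens insulin and Igf1 receptor signalling. Both are imprinted genes that restrain growth in the mouse. Igf2bp proteins bind Igf2 and other mRNAs and are typical of fetal and tumour tissue.

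H19 and Igf2 each host a microRNA, shown here to identify the small RNAs that lie within these loci. The mature sequences were taken from RefSeq on GRCm38.p6, chromosome 7, minus strand, and the seed (bases 2 to 8) is in capitals. The polyA RNA values measure the host genes, and neither primary nor mature microRNAs were analysed here. The 4 seeds differ from each other.
miR-675-5p (H19, chr7:142577112-142577133): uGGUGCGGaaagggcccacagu
miR-675-3p (H19, chr7:142577078-142577099): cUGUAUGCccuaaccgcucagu
miR-483-5p (Igf2, chr7:142654968-142654989): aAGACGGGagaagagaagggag
miR-483-3p (Igf2, chr7:142654932-142654952): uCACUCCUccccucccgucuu

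RefSeq promoter windows, from 250 bases before to 50 bases after a transcript start, were held for 7 of the 10 members with 11 starts, and H19, Cdkn1c and Insr had none. In all, 4 motifs were searched on both strands. They were the E-box CACGTG, known to be bound by MYC with its partner MAX, the GC box GGGCGG, the TATA box TATAAA and the Stat5 palindrome TTCNNNGAA. Of 32851 mouse promoter windows of the same length, 7.15% held the E-box, 35.7% the GC box, 13.6% the TATA box and 8.30% the Stat5 palindrome. The windows of Igf2bp3 and Igf2r each held 2 E-boxes, and no other member window held one. They stood at -23 and 6 from the start in Igf2bp3 and at -48 and -7 in Igf2r, counted at their first base. Igf2r also held 3 GC boxes. Of the Igf2 starts, start 4 held 2 GC boxes and start 3 held 1. In the Igf1 window none of the 4 motifs occurred, and no member window held the TATA or Stat5 motif. Capitals mark the motifs in the windows below, which come from build GRCm38.p6, whereas the expression values rest on mm39. A motif match is a description of letters and was not tested as a binding site.
Igf2, start 4 (chr7:142657447-142657746, minus strand): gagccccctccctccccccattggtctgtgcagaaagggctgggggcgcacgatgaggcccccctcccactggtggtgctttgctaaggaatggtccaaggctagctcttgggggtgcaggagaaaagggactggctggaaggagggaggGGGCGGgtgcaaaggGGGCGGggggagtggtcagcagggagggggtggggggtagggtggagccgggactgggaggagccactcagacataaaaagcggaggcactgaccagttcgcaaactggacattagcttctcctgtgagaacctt
Igf2bp3 (chr6:49214905-49215204, minus strand): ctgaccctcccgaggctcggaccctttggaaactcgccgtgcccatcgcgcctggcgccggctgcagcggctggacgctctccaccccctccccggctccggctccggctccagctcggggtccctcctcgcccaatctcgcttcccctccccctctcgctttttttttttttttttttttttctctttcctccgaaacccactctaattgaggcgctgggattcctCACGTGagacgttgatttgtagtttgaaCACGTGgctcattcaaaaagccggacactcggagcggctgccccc
Igf2r (chr17:12769657-12769956, minus strand): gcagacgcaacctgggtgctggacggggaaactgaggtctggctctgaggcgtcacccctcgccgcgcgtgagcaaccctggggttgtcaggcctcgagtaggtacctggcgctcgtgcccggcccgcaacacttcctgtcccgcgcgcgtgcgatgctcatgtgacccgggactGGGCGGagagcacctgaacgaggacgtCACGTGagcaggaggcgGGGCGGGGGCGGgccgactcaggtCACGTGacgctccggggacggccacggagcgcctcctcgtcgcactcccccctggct
Igf1 (chr10:87860861-87861160, plus strand): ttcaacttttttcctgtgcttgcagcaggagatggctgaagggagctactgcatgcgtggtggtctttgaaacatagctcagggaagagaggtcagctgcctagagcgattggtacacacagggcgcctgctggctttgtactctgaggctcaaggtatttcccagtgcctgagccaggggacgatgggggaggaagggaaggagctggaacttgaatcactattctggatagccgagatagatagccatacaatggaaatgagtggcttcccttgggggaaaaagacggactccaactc

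Several libraries stood apart. Aoah itself was at 283.72 to 685.24 TPM in Luc Aoah tumours, against 0.74 to 54.76 TPM in Luc vector tumours. It was at 576 to 931 TPM in LucOS Aoah tumours, against 1.28 to 3.43 TPM in LucOS vector tumours. Vector tumours 1 and 3 of Luc held 18.57 and 54.76 TPM of Aoah, against 0.74 and 0.89 TPM in the other two, so results that rest on them are also given without that pair. In Luc Aoah 3 small non-coding RNA of 323 genes took 9.28% of TPM, against 1.06% to 2.37% in the other tumours. In LucOS Aoah 3 mitochondrially encoded genes took 16.6%, against 3.41% to 8.45% elsewhere. Hepatocyte markers summed to 10417 to 29914 TPM in Luc Aoah, 11294 to 14958 TPM in Luc vector, 11949 to 24913 TPM in LucOS Aoah tumours, against 6277 to 15039 TPM in LucOS vector tumours, with all 12 markers measured. Between 11478 and 12836 genes reached 1 TPM per tumour. Depth is unknown because TPM keeps none.

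In Luc tumours, which lack the added antigens, Aoah went with lower H19 and Igf2 and higher Igf1. Of the 10 members, 8 passed the filter of 1 TPM in at least 3 tumours and were tested. Adjusted p-values are from limma on log2(TPM + 1), fitted on 13466 genes and adjusted over all of them with the Benjamini-Hochberg method at 0.05. Of these, 7 passed. Igf1 rose, and H19, Igf2, Cdkn1c, Igf2bp3, Igf2r and Grb10 fell. Of all genes tested, 22.2% passed in this comparison, 7.93% higher and 14.3% lower with Aoah. The median change was -1.28 over the 8 members and -0.24 over all genes, so each change below also contains that common shift. With each tumour centred on its median all 8 passed, where 30.6% of all genes did, and the share of called genes that were higher was 52.1%, against 35.7% without centring. Without Luc vector 1 and 3 together, Igf1 alone of the 8 passed, where 2.68% of all genes did. Without Luc Aoah 4, or without Luc vector 3, 4 members passed, where 6.40% and 7.29% of all genes did. Without Luc Aoah 2, or without Luc vector 2, all 8 passed, where 39.3% and 33.1% of all genes did. Changes on this scale understate those of genes at low TPM.

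H19 stood at 3616, 4903, 978 and 2267 TPM in the 4 Luc Aoah tumours, against 8879.98, 7286, 17135 and 11821 TPM in the 4 Luc vector tumours. Every Aoah tumour lay below every vector tumour, and Aoah 3, the library rich in small RNA, was lowest. Among all listed genes H19 ranked 20 to 192 by TPM in Luc Aoah tumours and 2 to 14 in Luc vector tumours, where it made up 0.729% to 1.72% of all TPM. On the log2 scale H19 changed by -2.09 (SE 0.49, limma adjusted p = 0.0124), or -1.85 relative to the median gene. Without Luc vector 1 and 3 it was -1.89 and no longer passed (adjusted p = 0.138).

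Igf2, the coding partner of H19, was measured at 953, 857, 464 and 502 TPM in Luc Aoah tumours, against 1367, 1363, 2522 and 1727 TPM in Luc vector tumours. The groups did not overlap. Its log2 change was -1.35 (SE 0.33, adjusted p = 0.0142), and without Luc vector 1 and 3 it was -1.22 (adjusted p = 0.140). It was also not called without Luc Aoah 4 (-1.22) or without Luc vector 3 (-1.16). H19 exceeded Igf2 in every tumour, by 2.11 to 5.72 times in Luc Aoah and 5.34 to 6.84 times in Luc vector tumours. Groups that did not overlap were seen for 5 members in Luc, and for 20.9% of all genes tested. These were H19, Igf2, Cdkn1c and Igf2bp3, lower with Aoah, and Igf1, higher with Aoah.

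Igf1 moved the other way. It stood at 65.03, 86.2, 53.79 and 106 TPM in Luc Aoah tumours, against 13.97, 6.36, 15.37 and 16.82 TPM in Luc vector tumours. The lowest Aoah tumour was above the highest vector tumour. On the log2 scale Igf1 changed by 2.51 (SE 0.39, adjusted p = 0.000986), rank 87 of 13466 among rises. This was the member call that held in all 18 alternatives tried, with adjusted p-values of 0.000103 to 0.0201, and without Luc vector 1 and 3 the change was 2.74 (adjusted p = 0.0158). The ratio of the fetal to the adult ligand differed as well. Igf2 TPM was 4.72 to 14.6 times Igf1 TPM in Luc Aoah tumours, against 97.9 to 214 times in Luc vector tumours.

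**Figure D1:**
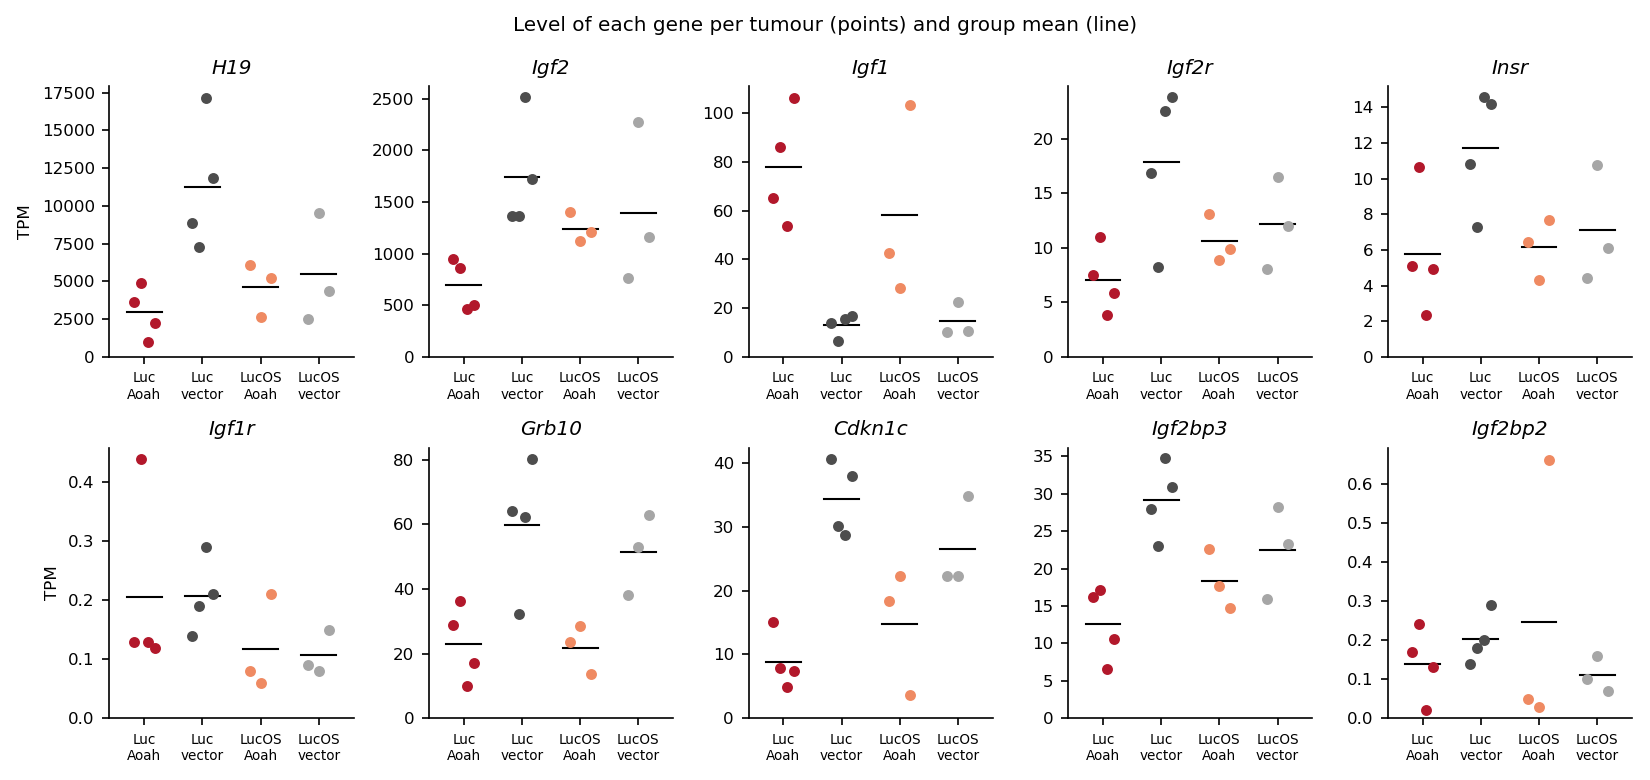
Level of each of the 10 genes in TPM on a linear axis from 0, one point per tumour and a line at the group mean, for Luc Aoah (n = 4), Luc vector (n = 4), LucOS Aoah (n = 3) and LucOS vector (n = 3). Igf1 lies at 53.79 to 106 TPM in Luc Aoah tumours, against 6.36 to 16.82 TPM in Luc vector tumours, while H19 lies at 978 to 4903 and 7286 to 17135 TPM in these groups.

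In every tumour the receptors stood far below Igf2 in TPM, whereas Igf2r and Igf1 were at like levels in vector tumours, with means of 17.86 TPM of Igf2r and 13.13 TPM of Igf1 in Luc vector tumours. Igf2r, the clearance receptor, had 7.51, 11, 3.83 and 5.85 TPM in Luc Aoah tumours, against 16.82, 8.21, 22.58 and 23.83 TPM in Luc vector tumours. The groups overlapped through vector 2. The change of -1.21 passed (SE 0.34, adjusted p = 0.0272). Leaving out Luc Aoah 1, 3 or 4, or Luc vector 1, 3 or 4, each alone, ended the call, and the change was -0.99 without Luc vector 1 and 3 (adjusted p = 0.244). Insr, the insulin receptor, had 5.1, 10.67, 2.34 and 4.94 TPM in Luc Aoah tumours, against 10.82, 7.27, 14.59 and 14.19 TPM in Luc vector tumours. Its change of -1.01 did not pass (SE 0.36, adjusted p = 0.0542). It passed after each tumour was centred on its median (-0.69, adjusted p = 0.0236), without Luc Aoah 2 (-1.32) and without Luc vector 2 (-1.20). Igf1r, the receptor of Igf1, did not exceed 0.44 TPM in any of the 14 tumours. It was at 0.12 to 0.44 TPM in Luc Aoah tumours, against 0.14 to 0.29 TPM in Luc vector tumours, and was not tested.

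Among the growth-restraining imprinted genes, Cdkn1c was at 15.14, 7.83, 4.92 and 7.48 TPM in Luc Aoah tumours, against 40.54, 30.15, 28.68 and 37.94 TPM in Luc vector tumours. The groups were clearly apart, and the change was -1.93 (SE 0.42, adjusted p = 0.00873). Without Luc vector 1 and 3 its size was nearly the same, -1.92, and the call was lost (adjusted p = 0.0949). Grb10 stood at 28.99, 36.46, 9.91 and 16.99 TPM in Luc Aoah tumours, against 64.31, 32.42, 62.35 and 80.31 TPM in Luc vector tumours. Vector 2 lay inside the Aoah range. Grb10 changed by -1.42 (SE 0.37, adjusted p = 0.0208). It no longer passed with any one of Luc Aoah 3 or 4 and Luc vector 1, 3 or 4 left out, and the change was -1.27 without Luc vector 1 and 3 (adjusted p = 0.200).

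Of the mRNA binders, Igf2bp3 was measured at 16.19, 17.19, 6.58 and 10.66 TPM in Luc Aoah tumours, against 28, 22.98, 34.78 and 30.89 TPM in Luc vector tumours. The groups did not overlap. The change was -1.21 (SE 0.28, adjusted p = 0.0107), and -1.10 without Luc vector 1 and 3 (adjusted p = 0.139). Igf2bp2, by contrast, was at 0.02 to 0.24 TPM in Luc Aoah tumours, against 0.14 to 0.29 TPM in Luc vector tumours, too low to be tested. The other family gene, Igf2bp1, not among the members, was at most 0.59 TPM in any tumour.

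In LucOS tumours, which carry the antigens, none of the 8 tested members passed, where 0.965% of all genes did, 0.75% higher and 0.215% lower with Aoah. At an unadjusted p under 0.05, 1654 of 13466 genes stood out, among them Igf1, Grb10 and Cdkn1c. Igf1 was at 42.62, 28.27 and 103.57 TPM in LucOS Aoah tumours, against 10.32, 22.45 and 10.77 TPM in LucOS vector tumours. The groups did not overlap, and LucOS Aoah 3, the library rich in mitochondrial RNA, was far above the others. Igf1 changed by 1.81 (SE 0.45, adjusted p = 0.0823). It was 1.29 without LucOS Aoah 3 (adjusted p = 0.342). It passed without LucOS Aoah 2 (2.21, adjusted p = 0.0301), without LucOS vector 2 (2.15, adjusted p = 0.0260) and after median centring (1.78). Igf2 TPM was 11.7 to 39.6 times Igf1 TPM in LucOS Aoah tumours, against 73.8 to 107 times in LucOS vector tumours.

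H19 and Igf2 showed no detectable shift in LucOS. H19 was at 6069.71, 2647 and 5195 TPM in LucOS Aoah tumours, against 2531, 9519 and 4351 TPM in LucOS vector tumours. Values of both groups were interleaved. Its change was -0.11, with a 95% confidence interval from -1.32 to 1.10 (limma adjusted p = 0.978). Igf2 was at 1399, 1120.19 and 1209.56 TPM in LucOS Aoah tumours, against 761, 2274 and 1157 TPM in LucOS vector tumours. Vector 1 and vector 2 lay on either side of all Aoah tumours. The change was -0.03, with an interval from -0.83 to 0.78 (adjusted p = 0.994).

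The remaining members had a few low Aoah values in LucOS. Grb10 was at 23.5, 28.59 and 13.61 TPM in LucOS Aoah tumours, against 38.27, 52.89 and 62.87 TPM in LucOS vector tumours. With Igf1 it was the second of 2 tested members without overlap, against 12.3% of all genes. Its change of -1.22 did not pass (SE 0.43, adjusted p = 0.231). Cdkn1c was at 18.43, 22.27 and 3.7 TPM in LucOS Aoah tumours, against 22.24, 22.28 and 34.83 TPM in LucOS vector tumours. One low tumour, LucOS Aoah 3, set most of its difference. The change was -1.06 (adjusted p = 0.392), and -0.34 without LucOS Aoah 3. Igf2bp3, Igf2r and Insr differed by -0.26, -0.15 and -0.14. Igf1r ranged from 0.06 to 0.21 TPM in LucOS Aoah tumours, against 0.08 to 0.15 TPM in LucOS vector tumours. Igf2bp2 ranged from 0.03 to 0.66 TPM and from 0.07 to 0.16 TPM in these groups.

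**Figure D2:**
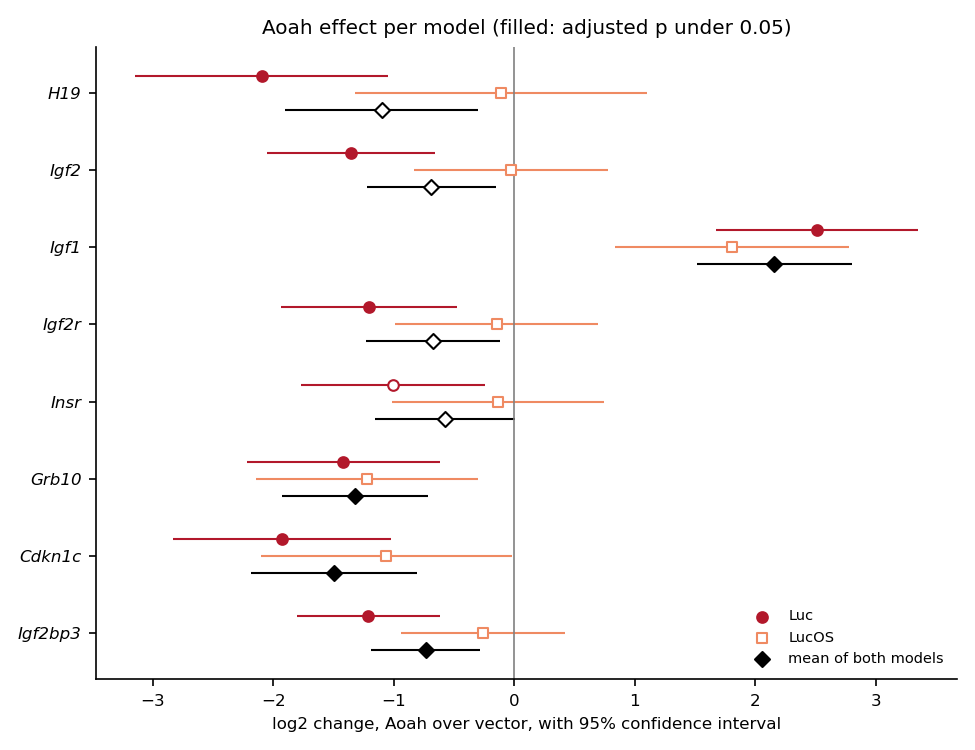
Log2 change of Aoah over vector tumours, with 95% confidence intervals from limma, for the 8 tested genes in Luc, in LucOS and as the mean of both models. Filled symbols passed an adjusted p of 0.05. Igf1 lies right of 0 in each row, from 1.81 in LucOS to 2.51 in Luc, whereas the H19 point lies at -2.09 in Luc and -0.11 in LucOS.

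Over both models, Igf1 rose (log2 change 2.16, SE 0.30, limma adjusted p = 0.000347). Cdkn1c fell by 1.50 (adjusted p = 0.00679), Grb10 fell by 1.32 (adjusted p = 0.00678) and Igf2bp3 fell by 0.74 (adjusted p = 0.0313). So 1 member rose and 3 fell, where 14.7% of all genes passed, 8.02% higher and 6.68% lower. H19 at -1.10 (adjusted p = 0.0621) and Igf2 at -0.69 (adjusted p = 0.0762) did not pass, nor did Igf2r at -0.68 and Insr at -0.57. All 8 passed without Luc Aoah 2, where 24.9% of all genes did. H19 and Igf2r passed without Luc vector 2 (18.8% of all genes) and after median centring (24.3% of all genes), with adjusted p = 0.0326 for H19 and 0.0243 for Igf2r after centring. H19 and Igf2 passed without LucOS vector 1 (16.5% of all genes), with adjusted p = 0.0317 for H19 and 0.0259 for Igf2. The Igf2bp3 call was lost with the replicate number as a block (limma adjusted p = 0.144) and with no filter on low values (adjusted p = 0.0807). It was also lost without Luc vector 1 and 3 together and without Luc Aoah 4, Luc vector 1, 3 or 4, LucOS Aoah 2 or 3, or LucOS vector 2 or 3, each left out alone. The calls of Igf1, Cdkn1c and Grb10 over both models held in all 22 alternatives tried.

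Whether the Aoah effect differed between models was tested directly, as the LucOS effect minus the Luc effect. No member passed, and of all genes 0.00743% did, which is 1 gene. For H19 the difference was 1.99, with an interval from 0.38 to 3.59 (limma adjusted p = 0.443). For Igf2 it was 1.33, with an interval from 0.26 to 2.39 (adjusted p = 0.443), set against a median of 0.23 over all genes. Igf1 differed by -0.70, with an interval from -1.98 to 0.58. The H19 and Igf2 effects are not shown to differ between LucOS and Luc once all genes are taken into account.

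LucOS tumours, whose cassette adds the antigens, were compared with Luc tumours among those with vector. LucOS vector tumours had lower mean H19 (5467 ± 3625 TPM, SD, n = 3) than Luc vector tumours (11280.4 ± 4331 TPM, SD, n = 4). The log2 change of -1.18 did not pass (adjusted p = 0.344), and the tumours overlapped. None of the members was free of overlap between these groups, where 9.74% of all genes tested were. No member was called, and the share of all genes called by limma was 0%, although 1918 genes had an unadjusted p under 0.05. In Aoah tumours the reverse order was seen. LucOS Aoah tumours averaged 1243 ± 142 TPM of Igf2 (SD, n = 3), against 694 ± 247 TPM in Luc Aoah tumours (SD, n = 4), without overlap, which 7.48% of all genes also showed. Neither this change of 0.91 (adjusted p = 0.652) nor that of any other member passed, where 0.0817% of all genes did. By mean TPM, H19, Igf2, Cdkn1c, Igf2bp3, Igf2r and Insr were lowest in Luc Aoah, followed by LucOS Aoah, LucOS vector and Luc vector tumours. Neighbouring groups in that order overlapped for these genes, except Luc Aoah below LucOS Aoah for Igf2. Igf1 was highest in Luc Aoah, followed by LucOS Aoah, LucOS vector and Luc vector tumours, and of these neighbours LucOS Aoah and LucOS vector did not overlap. Grb10 was lowest in LucOS Aoah, followed by Luc Aoah, LucOS vector and Luc vector tumours, and of these neighbours Luc Aoah and LucOS vector did not overlap.

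The pair H19 and Igf2 varied together from tumour to tumour. Over the 14 tumours on the log2(TPM + 1) scale, Pearson's r was 0.92 and Spearman's rho 0.952. The permutation p was 1e-05, the smallest that 100000 permutations can give, and 9e-05 for r and 0.000225 for rho after Benjamini-Hochberg adjustment over the 45 member pairs. The relation held without Luc Aoah 3 and Luc vector 3, the tumours farthest from the H19 median (r = 0.849). It also held within Luc (r = 0.965, n = 8), within LucOS (r = 0.911, n = 6), and with group means subtracted (r = 0.892). In LucOS, where the mean levels were alike with and without Aoah, H19 still spanned 2531 to 9519 TPM and Igf2 761 to 2274 TPM.

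Other members shared that variation. H19 correlated with Insr at r = 0.944, with Igf2bp3 at r = 0.934 and with Igf2r at r = 0.923, each with an adjusted permutation p of 0.00015 or less. Igf2bp3 and Igf2r, whose windows hold the E-boxes shown above, correlated at r = 0.929, and at r = 0.856 with group means subtracted. Igf2, with no E-box in its windows, correlated with Igf2bp3 at r = 0.923. Any part of the motif in these correlations was not tested. Across the 45 pairs, 22 passed an adjusted p of 0.05, 19 positive and 3 negative. The negative pairs all involved Igf1, with Cdkn1c (r = -0.858), Grb10 (r = -0.677) and Igf2bp3. With group means subtracted, Igf1 was at r = -0.521 with Cdkn1c, 0.118 with Grb10 and 0.277 with Igf2bp3, so the last 2 changed sign. Cdkn1c, a chromosome 7 neighbour, followed H19 less uniformly. Over all tumours their r was 0.586 (permutation p adjusted to 0.0547) and their rho 0.622 (permutation p adjusted to 0.0402), so the rank correlation passed and Pearson's did not. Their r was 0.877 within Luc (n = 8), -0.16 within LucOS (n = 6) and 0.0665 with group means subtracted.

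Part of this is common to the whole transcriptome. The median log2(TPM + 1) over all tested genes was 2.67 to 3.45 in Luc Aoah, 3.05 to 3.58 in Luc vector, 2.81 to 3.22 in LucOS Aoah and 2.74 to 3.31 in LucOS vector tumours. It correlated with Insr at r = 0.951, with H19 at r = 0.87, with Igf2r at r = 0.851 and with Igf2 at r = 0.695. The permutation p adjusted over 10 members was 0.0001, 0.000367, 0.000367 and 0.012 for these, with n = 14, and rho was 0.947, 0.851, 0.851 and 0.728. Without the 2 tumours farthest from the middle of that median, r was 0.922, 0.796, 0.734 and 0.557. Igf1 had r = -0.041 and Cdkn1c r = 0.309. With group means subtracted, r with the tumour median was 0.704 for Igf1 and 0.0015 for Cdkn1c, so within groups Igf1 also ran with the median. After each tumour was centred on its median, H19 and Igf2 still correlated at r = 0.814. What sets the tumour medians was not tested.

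**Figure D3:**
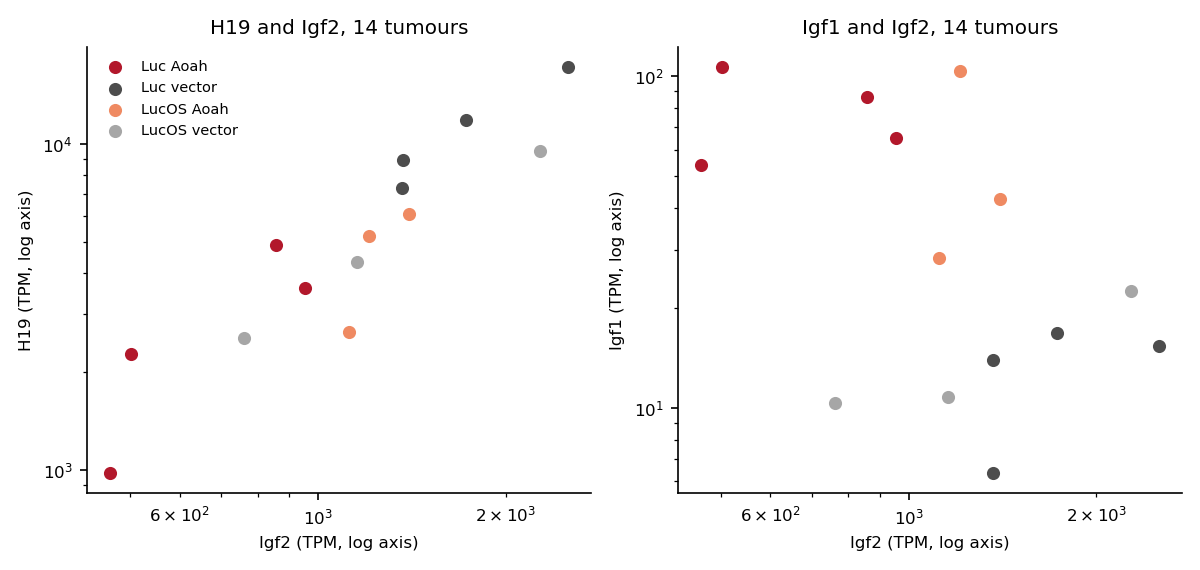
H19 (left) and Igf1 (right) against Igf2 in the 14 tumours, all axes in TPM on log scales, coloured by group. H19 climbs with Igf2 across groups (r = 0.92 on the log2 scale). In Igf1 every Aoah tumour lies above every vector tumour, with 28.27 TPM as the lowest Aoah and 22.45 TPM as the highest vector value. Aoah and vector tumours share only part of the Igf2 range.

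Genes outside the members with the most similar pattern were sought among 11833 tested genes, by Pearson's r over the 14 tumours and without a test. For H19 they were Pdlim1 (r = 0.989), Smoc1, Tmem150a, Trmt1 and H13, with Pdlim1 at 21.41 to 111 TPM. For Igf2 they were Hook2 (r = 0.938), Phf20, Foxa2, Telo2 and Tedc2. Foxa2 encodes a liver pioneer transcription factor. For Igf1 they were Ces3a (r = 0.982), Ces1g, Cyp4f14, Cd34 and Rdh16f2. Ces3a and Ces1g encode liver carboxylesterases, Cyp4f14 a cytochrome P450, Rdh16f2 a retinol dehydrogenase family member, and Cd34 a surface protein of endothelial and progenitor cells. Ces3a ran from 0.66 to 157 TPM.

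Growth hormone signalling genes around Igf1 were divided. In Luc, 1 of 8 tested genes of the list rose and none fell, where 7.93% of all genes rose and 14.3% fell. After median centring 3 rose and 2 fell, where 30.6% of all genes passed. The gene that rose without centring was Ghr, the growth hormone receptor. It was at 73.1, 66.4, 58.25 and 105 TPM in Luc Aoah tumours, against 16.82, 13.88, 16.21 and 22.11 TPM in Luc vector tumours. The 2 groups were far apart, and the change was 2.05 (SE 0.30, limma adjusted p = 0.000658), and 2.01 without Luc vector 1 and 3 (adjusted p = 0.0204). In LucOS, Ghr averaged 42.7 ± 19.9 TPM with Aoah and 18.2 ± 7.83 TPM with vector (SD, n = 3 each), and its change of 1.16 did not pass (adjusted p = 0.139). Over both models Ghr rose by 1.61 (adjusted p = 0.000412) and Prlr, the prolactin receptor, by 1.10 (adjusted p = 0.0403). Prlr did not pass without Luc vector 1 and 3, where 1 gene of the list rose. Over both models after median centring 3 rose and 1 fell. The list median in Luc was -0.17, and 0.15 after centring.

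Carriers of the growth factors moved in both directions. Of 8 tested carrier and protease genes, of 13 listed, 1 rose and 2 fell in Luc, where 7.93% of all genes rose and 14.3% fell. After median centring 2 rose and 2 fell, where 30.6% of all genes passed. Igfbp1, a liver binding protein known to be repressed by insulin, was at 108, 108, 51.76 and 102 TPM in Luc Aoah tumours, against 697, 312, 448 and 407 TPM in Luc vector tumours. No Aoah tumour reached the lowest vector tumour. The change was -2.32 (SE 0.34, adjusted p = 0.000658) and -2.00 without Luc vector 1 and 3 (adjusted p = 0.0223). Igfbp2, a binding protein abundant in fetal liver, changed by -1.35 (adjusted p = 0.00408), with 283 ± 83.9 TPM in Luc Aoah and 704 ± 151 TPM in Luc vector tumours (SD, n = 4 each). Igfbp7 rose by 1.16 (adjusted p = 0.0363). The last 2 calls were lost without Luc vector 1 and 3 (adjusted p = 0.0789 and 0.132). Over both models the same 3 genes passed, at -1.59, -1.04 and 1.31, where 14.7% of all genes passed. Igfals, the acid-labile subunit of the circulating Igf1 complex, averaged 5.65 ± 2.95 TPM in Luc Aoah and 2.73 ± 1.13 TPM in Luc vector tumours and did not pass (change 0.79, adjusted p = 0.156). Igfbp3, the main carrier protein in serum, changed by -0.21 (adjusted p = 0.683).

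**Figure D4:**
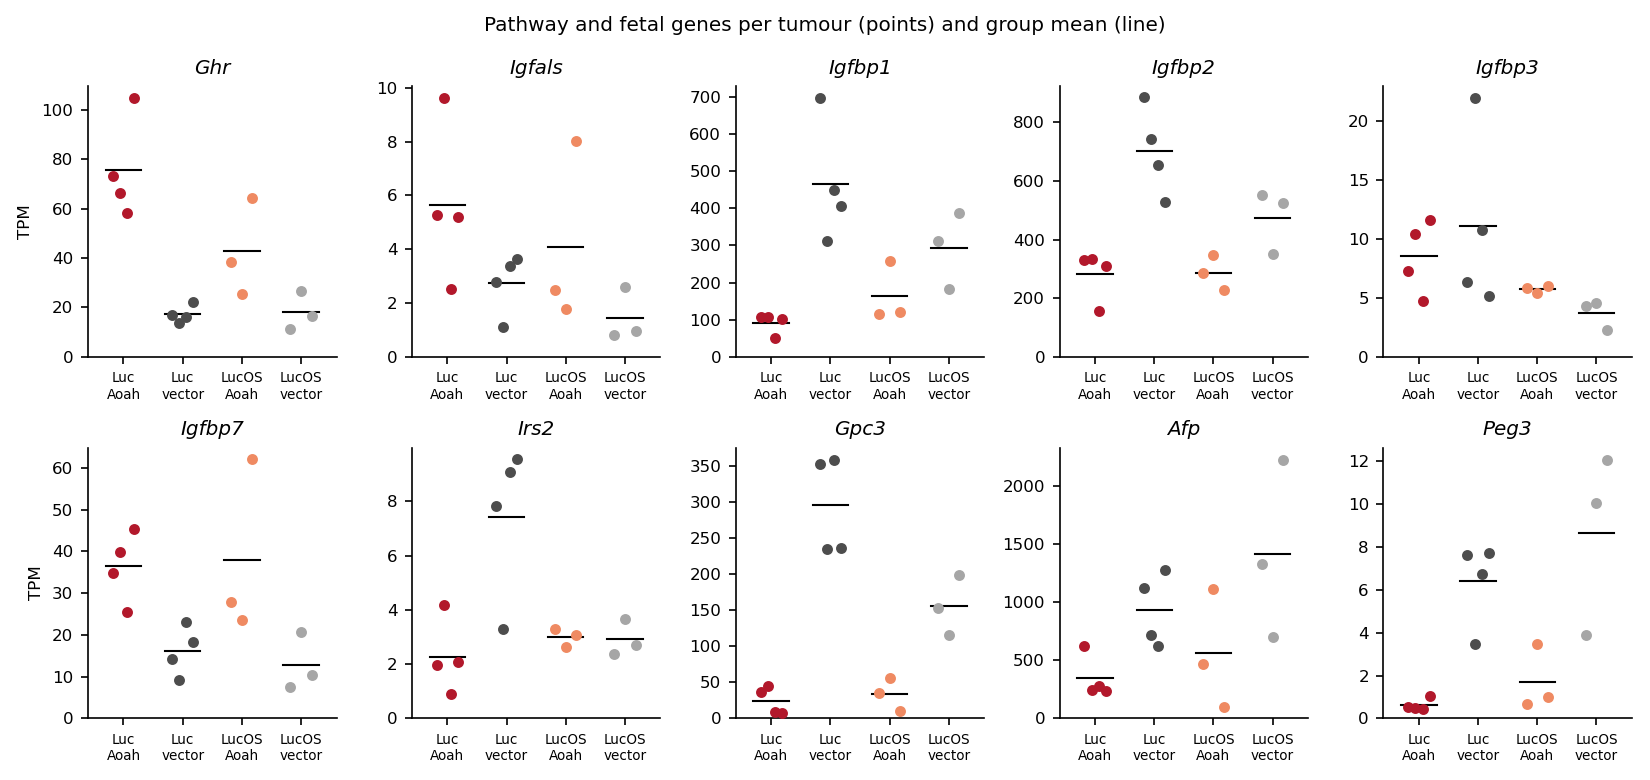
Level in TPM, on linear axes from 0, of Ghr, Igfals, Igfbp1, Igfbp2, Igfbp3, Igfbp7, Irs2, Gpc3, Afp and Peg3, one point per tumour and a line at the group mean. Ghr lies at 58.25 to 105 TPM in Luc Aoah tumours, against 13.88 to 22.11 TPM in Luc vector tumours, and Igfbp1 at 51.76 to 108 and 312 to 697 TPM in these groups.

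Of 28 insulin and Igf receptor signalling genes, all tested, 9 fell and none rose in Luc, where 14.3% of all genes fell and 7.93% rose. The median of the 28 was -0.70, against -0.24 over all genes. Those of the 9 with the smallest p were Irs2 at -1.38 (adjusted p = 0.0116), Foxo4 at -1.18 (adjusted p = 0.0221) and Mtor at -0.73 (adjusted p = 0.0255). Irs2 encodes an insulin receptor substrate, Foxo4 a transcription factor restrained by insulin signalling and Mtor a growth-controlling kinase. Irs2 was at 1.95, 4.17, 0.88 and 2.07 TPM in Luc Aoah tumours, against 7.81, 3.28, 9.07 and 9.55 TPM in Luc vector tumours, with an overlap at vector 2. Irs1 changed by -0.62 (adjusted p = 0.0449). The number that fell was 9 after median centring and 0 without Luc vector 1 and 3, where 30.6% and 2.68% of all genes passed. In LucOS none of the 28 passed, where 0.965% of all genes did, and the median was 0.05. Over both models only Akt2, an insulin-signalling kinase, passed (-0.88, adjusted p = 0.0418), where 14.7% of all genes did. None passed there without Luc vector 1 and 3 (6.61% of all genes). After median centring 1 rose and 7 fell over both models, where 24.3% of all genes passed.

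Around the imprinted locus on chromosome 7 the neighbours did not fall as a group. Of 20 listed neighbours of H19 and Igf2, 18 were in the table and 10 were tested. Their median change in Luc was -0.12, above that of all genes, of which 7.93% rose and 14.3% fell. Lsp1, a leukocyte protein gene, rose (1.20, adjusted p = 0.0269), and Igf2os, a transcript opposite to Igf2, fell (-0.84, adjusted p = 0.0374). After median centring 4 rose and 1 fell, and without Luc vector 1 and 3 none passed, where 30.6% and 2.68% of all genes passed. Igf2os was at 0.74 to 2.49 TPM in Luc Aoah tumours, against 2.72 to 4.04 TPM in Luc vector tumours. The labels' protocol describes both strand-keeping and non-strand-keeping libraries without saying which was made, so reads of Igf2 and Igf2os may not be told apart. The same holds for Igf2r and Airn, Igf1 and Igf1os, and Igf2bp3 and Malsu1, which overlap in the annotation. Mir675 lies within its host H19, so their reads may not be told apart with either library type.

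Imprinted growth genes elsewhere in the genome included some with larger negative estimates than H19. Of 13 tested, of 20 listed, 3 fell and 1 rose in Luc, where 14.3% of all genes fell and 7.93% rose. After median centring 4 fell and 3 rose, where 30.6% of all genes passed. Meg3, a maternally expressed non-coding RNA, changed by -2.73 (adjusted p = 0.00152), with 8.13 ± 4.12 TPM in Luc Aoah and 55.8 ± 13.6 TPM in Luc vector tumours (SD, n = 4 each). Peg3, a paternally expressed zinc-finger gene, changed by -2.14 (adjusted p = 0.00153), and Dlk1, a fetal liver surface protein gene from the Meg3 locus, by -3.02 (adjusted p = 0.0143). Without Luc vector 1 and 3, Meg3 and Peg3 still passed (adjusted p = 0.0465 and 0.0443) and Dlk1 did not (adjusted p = 0.157). The gene that rose was Dcn, which is also a stellate cell marker. In LucOS, Peg3 alone passed of the 88 pathway genes tested, at -1.86 (adjusted p = 0.0491), where 0.965% of all genes passed. Peg3 was at 0.68, 3.47 and 0.98 TPM in LucOS Aoah tumours, against 3.89, 10.05 and 12.07 TPM in LucOS vector tumours.

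A list that joins fetal liver genes with RNA binders and postnatal repressors was lower in part in Luc Aoah tumours. Its counts do not describe fetal genes alone. Of 11 tested oncofetal and postnatal silencing genes, of 14 listed, 4 fell and none rose, where 14.3% of all genes fell and 7.93% rose. Gpc3, a glypican of fetal liver and liver cancer, changed by -3.88 (adjusted p = 0.00062), Zfp568, a zinc-finger repressor of a placental Igf2 transcript, by -1.19 (adjusted p = 0.0191), and Hmga1, a chromatin protein gene, by -1.28 (adjusted p = 0.0297). Of these, Gpc3 passed without Luc vector 1 and 3 (adjusted p = 0.0210). Afp, alpha-fetoprotein, averaged 345 ± 186 TPM in Luc Aoah and 934 ± 317 TPM in Luc vector tumours (SD, n = 4 each), without passing in Luc (-1.50, adjusted p = 0.0887), and fell by 1.65 over both models (adjusted p = 0.0342). Zhx2, a postnatal repressor of Afp and H19 in mice, and Zbtb20, a postnatal repressor of Afp, stood at 0.74 to 4.4 TPM and 0.52 to 6.02 TPM in the 14 tumours. Neither passed in Luc (-0.62 and -0.53). Of 10 tested imprint maintenance genes 3 fell in Luc, namely Tet3, Dnmt1 and Zfp445, where 14.3% of all genes fell. The median change of the 10 was -0.66, against -0.24 over all genes. Without Luc vector 1 and 3 none fell, where 2.68% of all genes passed in either direction.

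Markers of several cell types also differed between Aoah and vector tumours. Igf1 is known to be made also by macrophages and stromal cells. Summed stellate cell and fibroblast markers reached 149 to 214 TPM in Luc Aoah tumours, against 46.96 to 79.86 TPM in Luc vector tumours, and 6 of 11 tested rose. Endothelial markers summed to 25.68 to 48.12 and 8.19 to 31.23 TPM, with 4 of 10 higher. Kupffer cell and macrophage markers summed to 333 to 469 and 226 to 438 TPM, with 2 of 10 higher. T cell markers summed to 26.72 to 49.35 and 2.30 to 10.08 TPM, with 5 of 7 higher. Of 12 hepatocyte markers, 2 rose and 1 fell, and of 3 tested cholangiocyte markers, of 6 listed, 1 fell. Of all genes tested, 7.93% rose and 14.3% fell in this comparison. Without Luc vector 1 and 3, the markers that rose in Luc were 1 of 11 for stellate cells and 3 of 7 for T cells. None rose for endothelial cells, macrophages or hepatocytes, where 2.68% of all genes passed in either direction. After median centring 9 of 11 rose for stellate cells, 9 of 10 for endothelial cells and 3 of 10 for macrophages. For T cells 7 of 7 rose then, and for hepatocytes 3 of 12. In that setting 30.6% of all genes passed, and 52.1% of these were higher. In LucOS, stellate markers summed to 118 to 246 TPM with Aoah, against 70.09 to 85.61 TPM with vector, and T cell markers to 29.61 to 96.03 and 7.38 to 21.35 TPM. Sums overlapped there for endothelial cells (14.78 to 33.46 and 8.87 to 26.9 TPM) and macrophages (247 to 832 and 162 to 411 TPM). They also overlapped for cholangiocytes (31.56 to 59.06 and 45.48 to 112.77 TPM) and, as given above, hepatocytes. In LucOS 1 of 7 T cell and 1 of 12 hepatocyte markers rose, where 0.75% of all genes did. No marker of the other lists, stellate cells included, passed in LucOS, where 0.965% of all genes did. No marker was at 0 in all tumours of a group. Their part in the changes of the members was not tested. In bulk RNA, fewer cells of a type and less RNA per cell cannot be told apart.

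**Figure D5:**
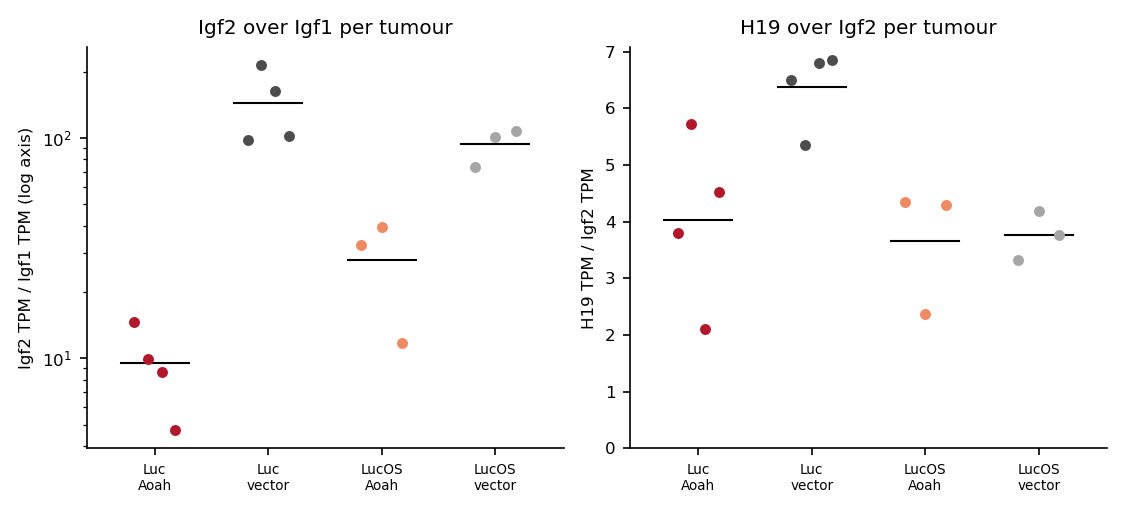
Ratio of Igf2 to Igf1 (left, log axis) and of H19 to Igf2 (right, linear axis from 0) in TPM, one point per tumour and a line at the group mean. The Igf2 to Igf1 ratio is 4.72 to 14.6 in Luc Aoah and 97.9 to 214 in Luc vector tumours, and 11.7 to 39.6 in LucOS Aoah and 73.8 to 107 in LucOS vector tumours.

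The authors' deposited tables hold their own comparisons, for which the submitters' processing notes name DESeq2. They do not state which group is on top, and the positive sign of Aoah in both was read as Aoah over vector. In Luc, the authors' deposited table had Igf1 at a log2 fold change of 2.89 (adjusted p = 7.18e-23), Cdkn1c at -1.70, H19 at -1.75 (adjusted p = 5.51e-06), Igf2 at -1.08 and Insr at -0.83 (adjusted p = 0.0199). All 8 members tested above were under an adjusted p of 0.05 in the authors' deposited table, where 31.7% of genes were, 15.6% with a positive and 16.1% with a negative sign. In the authors' deposited table Igf2bp2 at -0.33 and Igf1r at 0.14 were not under 0.05. In LucOS, the authors' deposited table had Igf1 alone under 0.05 among the 10 members, at 1.96 (adjusted p = 0.00162), where 2.77% of genes were. Grb10 was next there at -1.20 (adjusted p = 0.0671).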

How the data were processed

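Bulk polyA RNA of 14 mouse tumours was measured. Per the submitters' processing notes, the authors used RSEM and DESeq2 on build mm39; versions are not given in the sources used here. As deposited by the authors, expression is log2(TPM + 1) per gene symbol, 29923 in all. Their deposited comparison tables hold log2 fold changes and p-values, with the group on top not stated. Depth per sample is unknown, so no counting interval is given. The labels' protocol describes directional and non-directional libraries and does not say which was made.

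Genes at 1 TPM or more in at least 3 tumours were kept, leaving 13466. A model with 1 mean for each group, over the 14 tumours together, was fitted in limma 3.58.1 under R 4.3.3, with trend and robust variances, and Benjamini-Hochberg adjustment at 0.05 over all genes. The fit was tested on simulated data. Groups came from the labels. Alternatives were other pseudocounts, filters, centring, a replicate block and left-out tumours. Correlations used 100000 two-sided permutations. The members and lists were chosen with earlier results of these data known. Named were all members, up to 3 called genes per list and direction with the smallest p, 11 further pathway genes whatever their test, and the 5 genes most like H19, Igf2 and Igf1. In all, 7 pathway lists and 6 cell type lists were used, with 178 of 181 listed symbols in the table. Sequences came from RefSeq on GRCm38.p6. A deposited receptor repertoire table was not used here.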

Additional observations from a re-analysis of the deposited data

Results flagged for a closer look

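Igf1r in Luc Aoah tumours had 1 tumour far from the others. Luc Aoah 2 stood at 0.44 TPM and the other 3 at 0.12 to 0.13 TPM, so the gap to the nearest tumour was 0.965 of the group's range, past Dixon's 95% critical value for 4 samples. Chance flags about 1 in 20 groups, and 20 groups of members with 4 tumours were examined. All of these levels are under 1 TPM, and the cause was not tested.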

How the results depend on the processing

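Of 856 member results recomputed under alternatives, 776 kept their direction and side of the threshold, 43 lost a call, 16 gained one and 21 reversed. Most of the 856 were not called at the start and could not lose a call, so these totals do not measure how stable the calls were. In Luc, the call was lost in 10 of 18 alternatives for Igf2r, 9 for Grb10, 5 for Igf2, 3 each for H19 and Igf2bp3, 2 for Cdkn1c and 0 for Igf1. Over both models, the Igf2bp3 call was lost in 11 of 22. The number of members called in Luc, 7, was 2 (Igf1 and Cdkn1c) with the replicate number as a block, where 4.59% of all genes passed. It was 1 without Luc vector 1 and 3 together (2.68% of all genes). It was also 1 when Luc Aoah 3 was left out as well (1.94% of all genes, chosen after seeing the data). With each tumour left out in turn it was 4 to 8, where 6.40% to 39.3% of all genes passed. Calls over all genes in Luc, 2988, were 255 without Luc Aoah 3 and Luc vector 1 and 3, 355 without that vector pair, 618 with the block and 5251 without Luc Aoah 2. In LucOS the number of members, 0, was 1 after median centring, where 1.62% of all genes passed. With each tumour left out it was 0 to 1, where 0.097% to 2.63% of all genes passed. Over both models it was 4, and 3 to 8 with each tumour left out, where 9.16% to 24.9% of all genes passed. The counts of the other 3 comparisons were 0 throughout. The H19 and Igf2 correlation kept its call in the alternatives run, at 0.889 to 0.944 with each tumour left out. Igf2 in LucOS reversed to 0.054 without mitochondrial and small RNA genes. Under median centring Grb10 reversed to -0.14 for the difference between models, to 0.14 for LucOS against Luc in vector tumours and to -0.0025 in Aoah tumours. With each tumour left out, LucOS changes ran from -0.56 to 0.40 for H19, -0.39 to 0.40 for Igf2, -0.39 to 0.17 for Insr and -0.39 to 0.083 for Igf2r. The difference between models ran from -0.14 to 0.49 for Grb10. LucOS against Luc ran in vector tumours from -0.21 to 0.31 for Igf1 and -0.44 to 0.019 for Grb10, and in Aoah tumours from -0.10 to 0.50 for Insr and -0.31 to 0.31 for Grb10. The cause was not tested. Deviations of same-numbered Aoah and vector tumours from their group means correlated at r from -0.55 to 0.0013 in Luc (4 pairs). In LucOS r ran from -0.55 to 0.096 (3 pairs). Differently numbered tumours reached 0.467 in Luc and 0.488 in LucOS. So few pairs, centred within such small groups, cannot show whether the numbers pair the tumours, and the labels do not say. Leaving out tumours also leaves fewer samples, and TPM of genes such as Igf1r and Igf2bp2 was too low to be tested.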

Other observations

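Igf2 exceeded its clearance receptor Igf2r in every tumour, and the ratios of the groups overlapped. Igf2 TPM was 77.9 to 127 times Igf2r TPM in Luc Aoah, 72.5 to 166 times in Luc vector, 107 to 126 times in LucOS Aoah and 94.7 to 138 times in LucOS vector tumours. The ratio of H19 to Igf2 was 2.36 to 4.34 in LucOS Aoah and 3.32 to 4.19 in LucOS vector tumours, and no LucOS tumour reached the 5.34 that was lowest in Luc vector tumours. These ratios are descriptions without a test.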
